A study of Mus musculus with 6 samples.

Results

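Most of the genes described here encode brakes on the ERK pathway that are themselves switched on by ERK signalling: 4 dual-specificity phosphatases (Dusp1, Dusp4, Dusp5 and Dusp6), 3 Sproutys (Spry1, Spry2 and Spry4) and 2 Spreds (Spred1 and Spred2). The last is the transcription factor gene Etv5, not a brake but a widely used transcript readout of the same signal. The genes were taken by gene symbol, and all 10 were found among 24346 gene symbols in the files. Levels are in FPKM, fragments scaled to the length of the transcript and to the mapped total of the library. All 10 passed the filter on low values, a mean of 0.5 FPKM or more over the 6 libraries, as did 12022 genes in all. The cells were primary stromal cells grown on collagen with dihydrotestosterone from prostates of C57BL/6 mice aged 8 to 12 weeks. The S37A group carried a lentivirus encoding S37A β-catenin, and the vector group carried the lentiviral vector without it. There were 3 libraries in each group, and both groups came from the same kind of culture. The S37A change removes a phosphorylation site through which β-catenin is normally degraded, and β-catenin carries the canonical Wnt signal to the nucleus.

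In the ERK pathway, growth factor receptors activate Ras, which acts through the kinases Raf and MEK to phosphorylate ERK. Active ERK enters the nucleus and raises transcription of genes whose products then damp the signal at several levels. Sproutys act below the receptors and Spreds on Ras and Raf, while the dual-specificity phosphatases remove the phosphates from ERK itself or from related kinases. In fibroblasts and other stromal cells these genes respond to fibroblast, epidermal and platelet-derived growth factors.

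Promoter sequence is shown first, because a motif was shared by Dusp1 and Dusp5, the 2 of the 10 genes called higher in S37A. Whether the motif bears on these differences was not tested. The same motif was in the window of Spred2, whose difference was negative and not called. Windows of 250 bases before the transcription start were available in the RefSeq table (GRCm38.p6) for 8 of the 10 genes, with 2 windows for Etv5. Dusp4 and Spry4 had no window and were not searched. A total of 4 motifs were searched on both strands: ATCAAAG (the TCF/LEF core), CCGGAAG (the ETS core), TGACGT (the core of the cyclic AMP response element, CRE) and TGANTCA (the AP-1 site). The CRE core lay in 3 of the 9 windows, those of Dusp1, Dusp5 and Spred2, against 6.47% of all 32851 windows. The 9 windows were richer in G and C, at 56% to 71.2%, than the median window at 52.4%, and the CRE core holds a CpG, so that share is not from windows of like composition. The TCF/LEF, ETS and AP-1 motifs lay in 0 of the 9 windows, against 3.21%, 6.91% and 6.75% of all windows. A match is a description of the letters, and the absence of one says only that they are not in these windows. The windows with a CRE core and that of Spry2, the gene that fell, are printed 5′ to 3′ with the CRE core in capitals (ACGTCA where it lies on the other strand). Dusp1 holds 3 matches, of which 2 overlap as the full palindrome. The Dusp1 window is chr17:26508473-26508722 on the minus strand, that of Dusp5 chr19:53528895-53529144 on the plus strand, that of Spred2 chr11:19924192-19924441 on the plus strand and that of Spry2 chr14:105896820-105897069 on the minus strand.
Dusp1: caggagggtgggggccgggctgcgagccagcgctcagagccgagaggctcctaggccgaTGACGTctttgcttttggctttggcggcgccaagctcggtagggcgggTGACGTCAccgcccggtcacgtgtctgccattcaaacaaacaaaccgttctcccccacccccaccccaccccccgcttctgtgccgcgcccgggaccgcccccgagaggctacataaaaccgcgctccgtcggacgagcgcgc
Dusp5: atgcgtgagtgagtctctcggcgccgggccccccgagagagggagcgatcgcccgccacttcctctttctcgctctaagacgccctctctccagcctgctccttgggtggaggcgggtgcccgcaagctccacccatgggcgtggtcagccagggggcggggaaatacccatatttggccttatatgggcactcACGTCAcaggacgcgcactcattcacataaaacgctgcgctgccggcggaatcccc
Spred2: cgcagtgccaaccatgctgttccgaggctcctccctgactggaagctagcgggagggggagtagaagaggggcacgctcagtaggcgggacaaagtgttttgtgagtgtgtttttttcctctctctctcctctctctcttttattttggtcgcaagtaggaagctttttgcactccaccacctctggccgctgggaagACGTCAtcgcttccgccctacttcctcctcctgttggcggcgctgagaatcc
Spry2: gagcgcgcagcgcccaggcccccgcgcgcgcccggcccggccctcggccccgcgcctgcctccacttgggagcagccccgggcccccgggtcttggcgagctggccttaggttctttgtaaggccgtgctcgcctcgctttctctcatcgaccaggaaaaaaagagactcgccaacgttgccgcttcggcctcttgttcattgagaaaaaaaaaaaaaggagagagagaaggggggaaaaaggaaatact

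Dusp1 and Dusp5 rose in S37A, Spry2 fell, and the other 7 genes did not pass the test, which does not show that they were unchanged. Across all genes tested, 6.06% were called higher and 19.9% lower in S37A (limma, Benjamini-Hochberg adjusted p below 0.05), so the 2 of 10 that rose stand against a small background and the 1 of 10 that fell against a larger one. This split depended on scaling: with median-ratio scaling 11.1% of all genes were higher and 7.4% lower, and with quantile normalization 9.1% and 7.96%. Under median-ratio scaling, 3 of the 10 genes rose and 1 fell; under quantile normalization 2 rose and 1 fell. With array weights, which give less weight to libraries that fit poorly, 10.3% of all genes were higher and 30.4% lower (40.7% in either direction, against 26% as reported), and 3 of the 10 genes rose and 3 fell. Without the 100 most abundant genes 7.55% were higher and 12.6% lower (20.1% in either direction), and 2 of the 10 rose and 1 fell. The median log2 difference of the 10 genes was -0.01, against -0.07 for all genes tested. Separate cultures or animals are not stated for the replicates, and p-values therefore measure the spread between these libraries, which may be technical. In such bulk samples, fewer cells of a type and less RNA per cell cannot be told apart. Differences below are S37A minus vector on log2(FPKM + 1), and each p-value named adjusted is from that limma fit over 12022 genes.

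**Figure D1:**
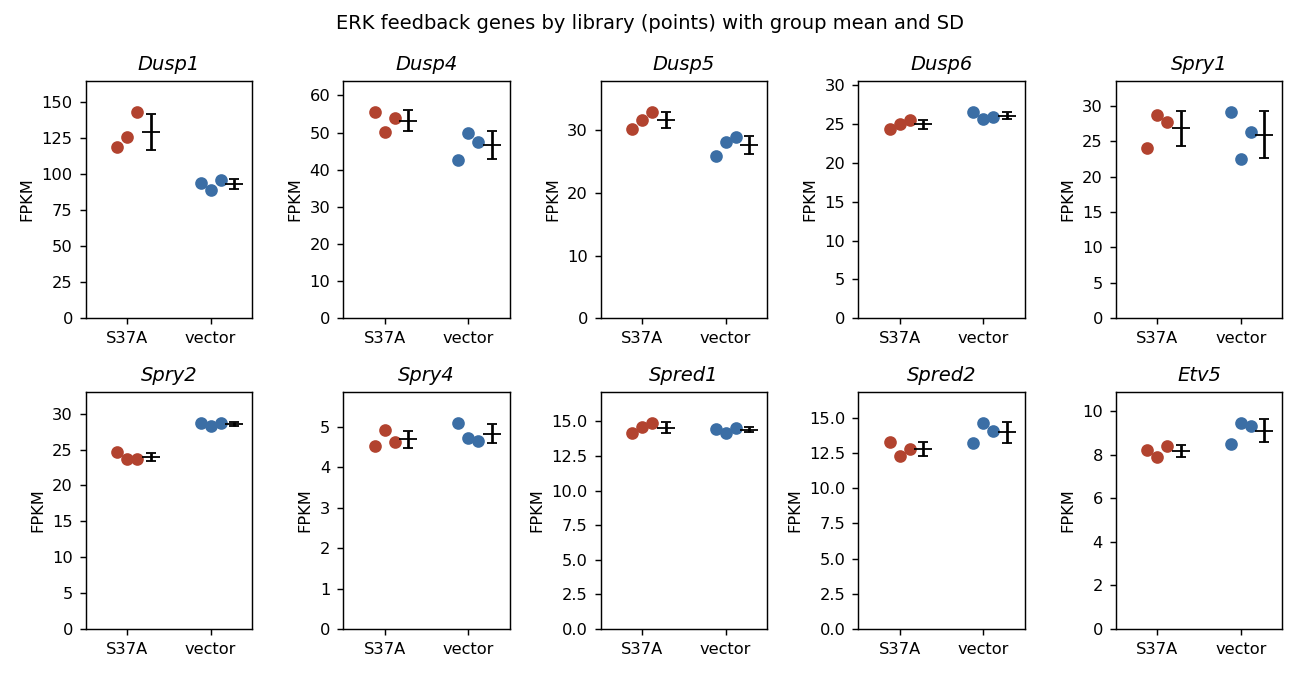
FPKM of each of the 10 genes in the 3 S37A libraries (left of each panel) and the 3 vector libraries (right), each axis starting at 0; horizontal ticks and bars are the group mean and SD. The S37A points lie above all vector points for Dusp1, Dusp4 and Dusp5 and below them for Dusp6, Spry2 and Etv5, while the points of the other 4 genes overlap.

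The introduced construct and the libraries were checked first. Ctnnb1, which encodes β-catenin, averaged 141 ± 7.73 FPKM in S37A and 110 ± 9.79 FPKM in vector (SD, n = 3 each; adjusted p = 0.0158, and 0.0567 and 0.0618 without S37A replicates 2 and 3). Axin2, a direct transcriptional target of β-catenin, averaged 2.95 ± 0.296 FPKM in S37A and 0.131 ± 0.0385 FPKM in vector (adjusted p = 3.85e-05). Interval widths in the files correspond to depths of 41.1 to 47.4 M fragments in the S37A libraries and 46.7 to 51.5 M in the vector libraries. Of 11 stromal markers tested, 4 rose (36.4%, against 6.06% of all genes) and 0 fell (against 19.9%). Lum, also in the stromal list, stayed under the expression filter. Vim, a mesenchymal filament gene, averaged 1665 FPKM in S37A and 1587 FPKM in vector. Macrophage markers moved with the groups: 7 of 9 tested rose (77.8%, against 6.06% of all genes) and 0 fell (against 19.9%). The 12 markers in the list summed to 56.5 to 63.7 FPKM in S37A and 22.1 to 28.2 FPKM in vector. Lyz2 was the largest part of these sums, with means of 36.7 FPKM in S37A and 14.1 FPKM in vector. Of this list, Ptprc, Itgam and Adgre1 stayed under the expression filter, and 0 of the 12 were at 0 in all libraries. Mean levels in S37A were 0.138, 0.274 and 0.235 FPKM for Ptprc, Itgam and Adgre1, against 0.0948, 0.127 and 0.0786 FPKM in vector. The part of this macrophage shift in the differences reported here was not tested. Of 8 epithelial and 9 endothelial markers tested, 0 rose and 0 fell in limma, against 6.06% and 19.9% of all genes. The epithelial list summed to 23.9 to 37.7 FPKM in S37A and 27.7 to 38.8 FPKM in vector. The endothelial list summed to 104 to 108 FPKM in S37A and 108 to 123 FPKM in vector. Emcn was its largest part, with means of 68.6 FPKM in S37A and 76.1 FPKM in vector.

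Dusp1, on chromosome 17 from 26505591 to 26508472 (mm10, minus strand), encodes a nuclear phosphatase, also called MKP-1, that acts on the stress-activated kinases as well as on ERK and is an immediate-early gene. It stood at 119, 126 and 143 FPKM in the S37A libraries, against 94.1, 88.9 and 96.1 FPKM in the vector libraries. Every S37A library was above every vector library, with S37A replicate 3 the highest. The means were 129 ± 12.5 FPKM in S37A and 93.1 ± 3.71 FPKM in vector, a 1.39-fold ratio, and the log2 difference was 0.47 (SE 0.07, 95% interval 0.31 to 0.62, adjusted p = 0.00779). Among all genes tested, 3.11% had a larger difference in either direction. An exact two-sided permutation test returned p = 0.1, which is its floor with 3 libraries a group. The call held under all 16 alternatives (adjusted p 0.00204 to 0.0328).

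Dusp5, on chromosome 19 from 53529318 to 53541322 (plus strand), encodes a nuclear phosphatase selective for ERK. Its level was 30.3, 31.7 and 33.0 FPKM in S37A libraries, against 26.0, 28.2 and 28.9 FPKM in vector libraries. The groups did not overlap, but the lowest S37A library was close to the highest vector library. The log2 difference was 0.19 (SE 0.05, 95% interval 0.07 to 0.31, adjusted p = 0.0345). This call was the least stable of the 3: it was lost in 7 of 16 alternatives, with adjusted p from 0.0110 to 0.115, including the removal of any library other than S37A replicate 1. The deposited Dusp5 model is 1155 bases long, which is the 1152 coding bases of the GENCODE M21 transcript and a stop codon, so reads from its untranslated parts did not enter the value. An antisense gene, AC137853.2, overlaps exon sequence of Dusp5. Since library preparation kept no strand information, reads of that stretch cannot be told apart.

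Dusp4, on chromosome 8 from 34807610 to 34819894 (plus strand), encodes the nuclear phosphatase MKP-2. It was measured at 55.6, 50.1 and 53.9 FPKM in S37A libraries, against 42.5, 49.9 and 47.5 FPKM in vector libraries. The groups did not overlap, although S37A replicate 2 lay only just above vector replicate 2. The log2 difference of 0.19 (SE 0.06, 95% interval 0.04 to 0.34) was as large as that of Dusp5 but did not pass (adjusted p = 0.0693). It was called under median-ratio scaling (adjusted p = 0.0304) and with array weights (adjusted p = 0.0263).

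Dusp6, on chromosome 10 from 99263231 to 99267489 (plus strand), encodes the cytoplasmic ERK-selective phosphatase MKP-3 and is among the transcripts most often read as a measure of ERK output. It stood at 24.4, 25.0 and 25.5 FPKM in S37A libraries, against 26.6, 25.7 and 26.0 FPKM in vector libraries. The S37A libraries lay below the vector libraries by a narrow margin. The difference of -0.06 (SE 0.03, 95% interval -0.14 to 0.02, adjusted p = 0.218) was close to the median of all genes, -0.07, and was 0.02 under median-ratio scaling.

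**Figure D2:**
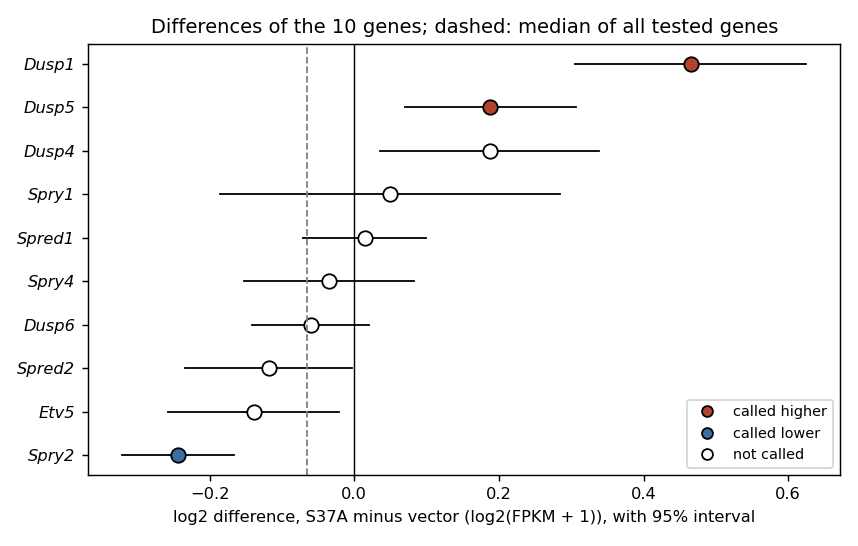
Log2 difference (S37A minus vector, on log2(FPKM + 1)) of each gene with its 95% interval from limma; filled points were called at an adjusted p below 0.05, and the dashed line marks the median of all tested genes, -0.07. Dusp1 (0.47) and Dusp5 (0.19) are called higher, Spry2 (-0.24) is called lower, and the 7 open points between them are not called.

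Among the Sproutys, adaptor proteins that inhibit receptor tyrosine kinase signalling upstream of Ras and at Raf, Spry2 fell and the others did not pass. Spry2, on chromosome 14 from 105891947 to 105896819 (minus strand), stood at 24.6, 23.7 and 23.7 FPKM in S37A libraries, against 28.7, 28.3 and 28.7 FPKM in vector libraries. Both groups were tight and far apart relative to their spread. The means were 24.0 ± 0.545 FPKM in S37A and 28.6 ± 0.261 FPKM in vector, a ratio of 0.839. The log2 difference was -0.24 (SE 0.03, 95% interval -0.32 to -0.17, adjusted p = 0.00625, exact two-sided permutation p = 0.1). It stayed negative and called under all 16 alternatives (adjusted p 0.00119 to 0.0380), at -0.17 with median-ratio scaling, the smallest of these differences. Of all genes tested, 14.7% had a larger difference in either direction.

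Spry1, on chromosome 3 from 37639947 to 37644599 (plus strand), had the largest SE of the 10 genes. It stood at 24.0, 28.8 and 27.7 FPKM in S37A libraries, against 29.2, 22.5 and 26.3 FPKM in vector libraries. The groups overlapped throughout, and the difference was 0.05 (SE 0.10, 95% interval -0.19 to 0.28, adjusted p = 0.733). Its value is a sum over 4 transcript models of the same locus, among which the assignment of reads was uneven. The model of 2163 bases ran from 9.30 to 12.1 FPKM in S37A and 4.54 to 11.3 FPKM in vector, and the model of 2452 bases was listed at 0 in S37A replicates 1 and 2 and in vector replicate 3. The sum was therefore tested. An exon of Gm42922 overlaps Spry1 on the other strand, so reads of that stretch cannot be told apart either. Spry4, on chromosome 18 from 38586265 to 38601268 (minus strand), was the least abundant of the 10, at 4.54, 4.92 and 4.62 FPKM in S37A libraries, against 5.11, 4.73 and 4.66 FPKM in vector libraries. These groups overlapped as well, with a difference of -0.03 (SE 0.05, 95% interval -0.15 to 0.08, adjusted p = 0.629) that turned positive under median-ratio scaling and quantile normalization.

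The Spreds, membrane-associated relatives of the Sproutys, act with the Ras GTPase-activating protein neurofibromin. Spred1, on chromosome 2 from 117121071 to 117182277 (plus strand), stood at 14.1, 14.6 and 14.9 FPKM in S37A libraries, against 14.5, 14.2 and 14.5 FPKM in vector libraries. The groups overlapped and their means lay within 1 SD of each other; the difference was 0.01 (SE 0.04, 95% interval -0.07 to 0.10, adjusted p = 0.785), and 0.09 with median-ratio scaling. Its shorter model, of 2006 bases, was listed at 0 in all 6 libraries. Spred2, on chromosome 11 from 19924442 to 20022597 (plus strand), stood at 13.3, 12.3 and 12.8 FPKM in S37A libraries, against 13.2, 14.7 and 14.1 FPKM in vector libraries. S37A replicate 1 and vector replicate 1 were alike, and the other libraries lay further apart. The difference of -0.12 (SE 0.05, adjusted p = 0.110) was called with array weights only (adjusted p = 0.0278).

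Etv5, on chromosome 16 from 22381313 to 22439570 (minus strand), encodes an ETS-family factor induced by fibroblast growth factor signalling. Its level was 8.24, 7.89 and 8.41 FPKM in S37A libraries, against 8.51, 9.48 and 9.35 FPKM in vector libraries. The groups did not overlap, but the gap between S37A replicate 3 and vector replicate 1 was small. The difference of -0.14 (SE 0.05, 95% interval -0.26 to -0.02) did not pass (adjusted p = 0.0779), and did so without vector replicate 1 (adjusted p = 0.0311) and with array weights (adjusted p = 0.0246). Of its relatives, Etv4, at 17.8 FPKM in S37A and 15.6 FPKM in vector, had a difference of 0.18 (adjusted p = 0.0509). Etv1, at 0.532 FPKM in S37A and 0.589 FPKM in vector, was close to the filter of 0.5 FPKM. Its difference was -0.05 (adjusted p = 0.480), and neither relative was called.

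In all, the groups did not overlap for 6 of the 10 genes, against 47.8% of all genes tested, which is a share near the background. By direction, 3 genes were higher in every S37A library (against 11.3% of all genes) and 3 were lower (against 36.5%). The deposited 95% intervals had half-widths of 1.90% to 2.26% of the value for Dusp1 and 5.94% to 6.66% for Spry4. They correspond to 7837 to 11091 and 901 to 1135 fragments. Intervals of this kind describe error within a library and do not cover the spread between libraries.

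Median-ratio factors of the libraries were 0.961 to 0.981 in S37A and 1.02 to 1.04 in vector. Each gene was also divided by Dusp6 of the same library, which removes any common scale; Dusp6 was chosen for this after its values were seen. The Dusp1 to Dusp6 ratio was 4.88, 5.02 and 5.60 in S37A libraries, against 3.54, 3.47 and 3.70 in vector libraries. All S37A ratios were higher. The Dusp5 to Dusp6 ratio was 1.24, 1.27 and 1.29 in S37A libraries, against 0.978, 1.10 and 1.11 in vector libraries. These groups were likewise separate. Dusp5 exceeded Dusp6 in every S37A library and also in vector replicates 2 and 3. The Dusp4 to Dusp6 ratio was 2.28, 2.00 and 2.11 in S37A libraries, against 1.60, 1.94 and 1.83 in vector libraries. The Spry2 to Dusp6 ratio was 1.01, 0.946 and 0.928 in S37A libraries, against 1.08, 1.10 and 1.11 in vector libraries, with every S37A ratio lower. For Spred1 the ratio was also apart, by a small step, at 0.580 to 0.584 in S37A and 0.545 to 0.559 in vector. The ratios of Spry1, Spry4, Spred2 and Etv5 overlapped. Thus 5 of 9 ratios did not overlap, against 38.1% of the ratios of all tested genes to Dusp6 that could be formed. The ratio of Dusp1 to Spry2 averaged 5.39 ± 0.609 in S37A and 3.26 ± 0.102 in vector (SD, n = 3 each); this pair was chosen after their values were seen, as the genes with the highest and lowest differences, so the size of its contrast is a description. Over the 10 ratios the smallest exact permutation p was 0.1, or 0.167 after Benjamini-Hochberg adjustment, so this design could not pass 0.05.

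**Figure D3:**
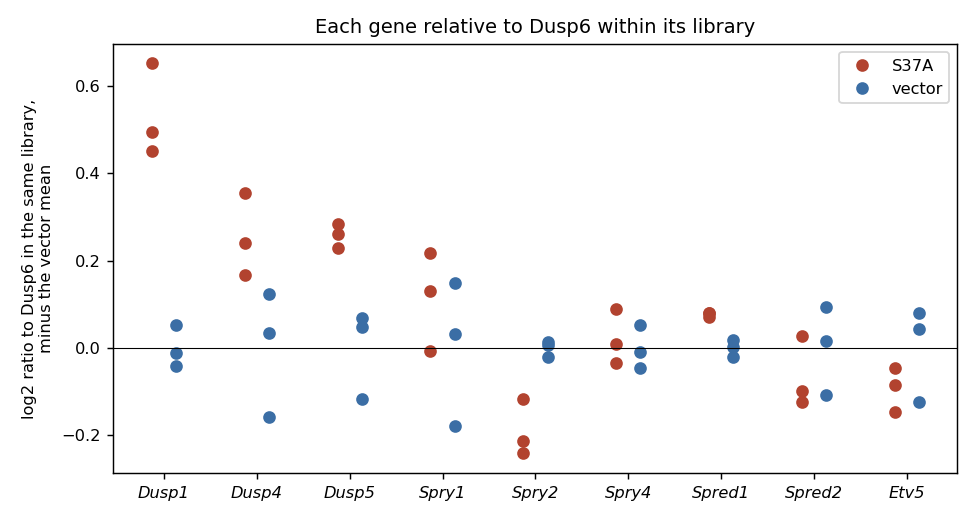
Log2 ratio of each gene to Dusp6 in the same library, set to 0 at the mean of the vector libraries; points are single libraries, S37A left and vector right. Dusp1, Dusp4 and Dusp5 lie above their vector points, Spry2 lies below, Spred1 lies slightly above, and Spry1, Spry4, Spred2 and Etv5 overlap.

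The order of the levels was the same in both groups at its top and low end and differed in its middle. Per length of transcript, Dusp1 was the most abundant in both, followed by Dusp4, and neither overlapped its neighbour. In S37A, Dusp5 at 31.7 FPKM came next and stood apart from Spry1 at 26.8, Dusp6 at 25.0 and Spry2 at 24.0 FPKM, of which each overlapped the next. In vector libraries, Spry2 at 28.6, Dusp5 at 27.7, Dusp6 at 26.1 and Spry1 at 26.0 FPKM formed a single overlapping run. Spry2 thus stood above Dusp5, Dusp6 and Spry1 in the vector means and below them in the S37A means. Spred1 and Spred2 followed, overlapping in vector libraries and separate in S37A libraries, and then Etv5 and Spry4 stood apart at the low end in both.

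The 10 genes lie on 10 different chromosomes, so none shares a locus with another. The 3′ untranslated region of Dusp1 (GENCODE M21) holds 4 ATTTA pentamers, the core of AU-rich elements found in many unstable transcripts, within 693 bases. That density of 5.77 per kb was matched or exceeded by 4.21% of 11222 tested genes with an annotated 3′ untranslated region, whose median was 1.34 per kb. Spred1 had 12 pentamers in 4333 bases, or 2.77 per kb. Dusp5 and Dusp6 had 1 each, or 0.899 and 0.838 per kb, and the other 6 genes lay between 1.55 and 2.33 per kb. By pentamer density, Dusp1 and Dusp5, which rose, stood at the top and near the bottom of the 10. Spry2, which fell, stood at 2.33 per kb. For each gene the GENCODE transcript with the longest such region was used, which need not match the deposited model. Whether the pentamers bear on the differences was not tested.

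Of 15 other negative regulators of receptor and Ras signalling tested in a list of 17, 1 rose and 3 fell. These shares of 6.67% and 20% were near those of all genes, 6.06% and 19.9%, with a median difference of -0.04 against -0.07 for all genes. Dusp10, a phosphatase for the stress-activated kinases, rose, at 10.6, 11.8 and 12.8 FPKM in S37A libraries, against 9.89, 9.36 and 10.0 FPKM in vector libraries (difference 0.24, adjusted p = 0.0354, called in 8 of 16 alternatives). Rasa1, a GTPase-activating protein of Ras, fell to 18.7 ± 0.633 FPKM in S37A, against 20.9 ± 0.415 FPKM in vector (adjusted p = 0.0280). Nf1, which encodes neurofibromin, the partner of the Spreds, fell to 5.79 ± 0.462 FPKM in S37A, against 6.92 ± 0.503 FPKM in vector (adjusted p = 0.0466). Lrig1, a membrane protein that promotes the breakdown of ErbB receptors, fell to 10.3 ± 0.666 FPKM in S37A, against 11.8 ± 0.199 FPKM in vector (adjusted p = 0.0396). All 3 falls were lost under each other scaling, and Nf1 and Lrig1 were called in 5 of 16 alternatives each. Dusp2 and Spry3 stayed under the expression filter, and Spry3 was listed at 0 in every library.

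Of the 20 genes of the cascade from adaptor to kinase, 2 rose (10%, against 6.06% of all genes) and 3 fell (15%, against 19.9%), with a median of -0.05. With median-ratio scaling 4 rose and 1 fell, against 11.1% and 7.4% of all genes. Ptpn11, which encodes the phosphatase SHP2, rose to 49.8 ± 0.588 FPKM in S37A, against 45.9 ± 1.06 FPKM in vector (adjusted p = 0.0378, called in 8 of 16 alternatives). Mapk3, which encodes ERK1, fell to 59.1 ± 0.518 FPKM in S37A, against 68.3 ± 3.10 FPKM in vector (adjusted p = 0.0141; 0.0536 with median-ratio scaling and 0.0591 without S37A replicate 3). Sos1, the exchange factor that loads Ras, fell to 4.87 ± 0.0327 FPKM in S37A, against 5.93 ± 0.204 FPKM in vector (adjusted p = 0.0112; 0.0515 without S37A replicate 3). The adaptor gene Gab1 was the other that fell. Without S37A replicate 3, 0 members of the cascade fell by limma.

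Of 16 transcripts known to respond to ERK in many cell types, 3 rose (18.8%, against 6.06% of all genes) and 3 fell (18.8%, near the 19.9% of all genes), with a median of 0.06. With median-ratio scaling 5 rose and 3 fell, against 11.1% and 7.4% of all genes. With quantile normalization 4 rose and 3 fell, against 9.1% and 7.96% of all genes. Ier2, an immediate-early gene, fell to 37.5 ± 2.37 FPKM in S37A, against 62.0 ± 4.21 FPKM in vector (difference -0.71, adjusted p = 0.00178). Egr1, a zinc-finger factor, stood at 77.4, 80.3 and 69.8 FPKM in S37A libraries, against 106, 96.4 and 110 FPKM in vector libraries (difference -0.45, adjusted p = 0.00770). Its relative Egr3 moved the other way, to 3.12 ± 0.170 FPKM in S37A, against 1.62 ± 0.261 FPKM in vector (difference 0.66, adjusted p = 0.00440). Myc fell to 41.1 ± 0.358 FPKM in S37A, against 51.1 ± 3.37 FPKM in vector (adjusted p = 0.00961). Plaur, the urokinase receptor, and the cytokine gene Lif were the others that rose, while Fos, Fosl1, Junb, Phlda1 and Ccnd1 were not called. The calls of Ier2, Egr1, Egr3 and Myc held under every alternative in which they were tested. Among immediate-early genes, Dusp1 and Egr3 thus rose while Ier2, Egr1 and Myc fell.

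**Figure D4:**
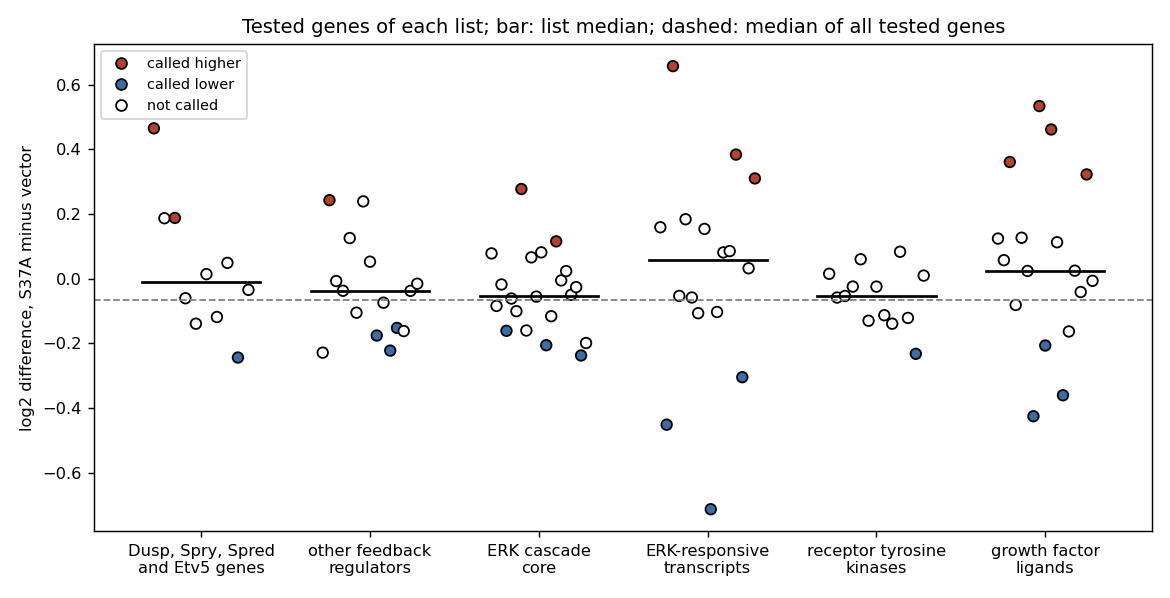
Log2 difference (S37A minus vector) of every tested gene in 6 lists; filled points were called higher or lower at an adjusted p below 0.05, bars are list medians and the dashed line is the median of all tested genes. Called genes lie on both sides in 5 of the lists, while the receptor list has 1 call, Pdgfra, which is lower.

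Of 13 receptor tyrosine kinase genes tested, 0 rose (against 6.06% of all genes) and 1 fell (7.69%, against 19.9%), with a median of -0.05. Pdgfra, a platelet-derived growth factor receptor, fell to 15.8 ± 0.408 FPKM in S37A, against 18.8 ± 0.861 FPKM in vector (adjusted p = 0.0132; 0.0575 with median-ratio scaling and 0.0577 without S37A replicate 3). Fgfr1, the most abundant fibroblast growth factor receptor here, stood at 108 ± 5.55 FPKM in S37A and 118 ± 8.02 FPKM in vector (adjusted p = 0.136). Insr and Igf1r, the insulin and IGF receptors, had differences of -0.14 and -0.11 (adjusted p = 0.0629 and 0.179).

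Of 17 growth factor ligand genes tested in a list of 22, 4 rose (23.5%, against 6.06% of all genes) and 3 fell (17.6%, near the 19.9% of all genes), with a median of 0.02. With median-ratio scaling 4 rose and 2 fell, against 11.1% and 7.4% of all genes. Hbegf, a ligand of the epidermal growth factor receptor, rose to 58.9 ± 3.93 FPKM in S37A, against 40.4 ± 4.44 FPKM in vector (difference 0.53, adjusted p = 0.00838). Igf1 rose to 19.7 ± 1.24 FPKM in S37A, against 14.0 ± 0.753 FPKM in vector (adjusted p = 0.00494). Fgf7, a stromal ligand for epithelial cells, fell to 2.71 ± 0.126 FPKM in S37A, against 3.99 ± 0.313 FPKM in vector (adjusted p = 0.00700), and Kitl to 9.48 ± 0.403 FPKM, against 12.5 ± 0.514 FPKM (adjusted p = 0.00567). These 4 calls held in every alternative in which the gene was tested. Fgf2, the most abundant ligand of its family here, was not called (difference 0.02, adjusted p = 0.813).

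**Figure D5:**
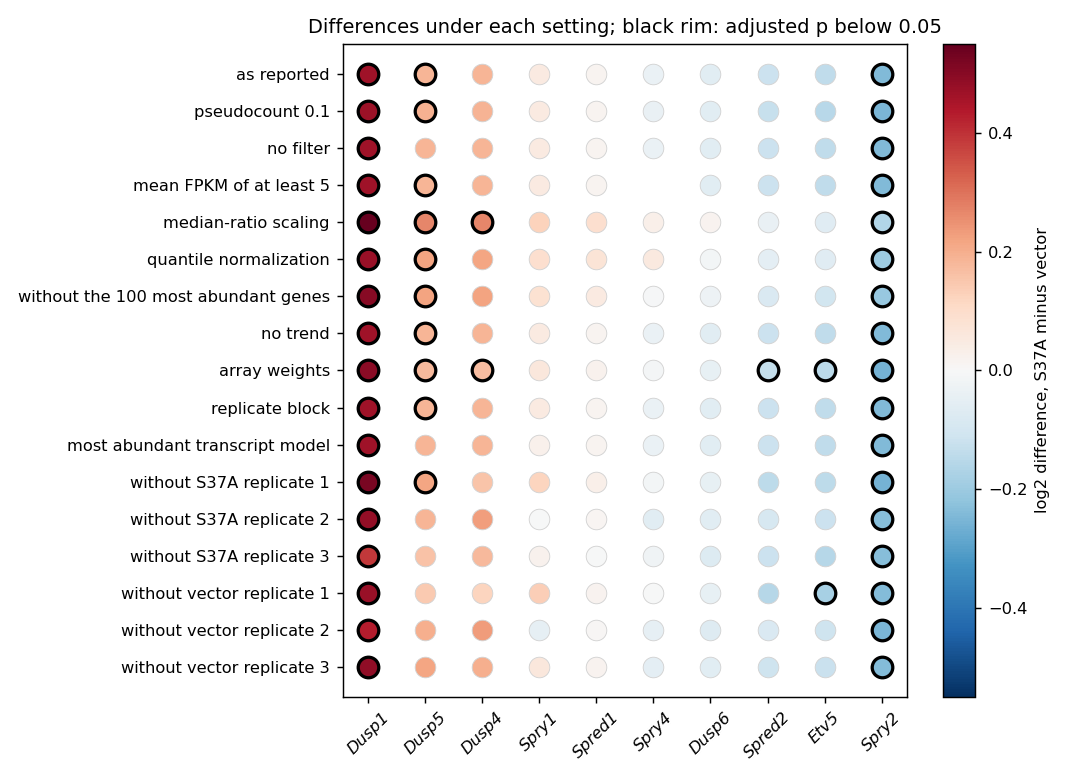
Log2 difference (S37A minus vector, colour) of each gene under the reported setting (top row) and 16 alternatives; a black rim marks an adjusted p below 0.05, and a missing point a gene under the filter. Dusp1 and Spry2 carry a rim in every row, Dusp5 in 10 of 17 rows, Dusp4 and Etv5 in 2 rows each and Spred2 in 1.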

How the data were processed

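RNA sequencing with a kit that does not mark the strand was run on 6 libraries. The submitters' processing notes name Cufflinks, TopHat, bcl2fastq 1.8.3 and the build mm10. Per the file headers, the authors deposited FPKM with lower and upper bounds for 34535 transcript models, and coverage, which was not tested. FPKM was summed by gene symbol; 5 symbols with a failed estimate were left out. Genes averaging 0.5 FPKM or more were compared in limma 3.58.1 under R 4.3.3, with an intensity trend, as log2(FPKM + 1), and Benjamini-Hochberg adjustment over 12022 genes; the log scale understates changes of low genes. Single values were set against an exact two-sided permutation test. Fragment numbers were inferred from the widths of the deposited 95% intervals; values above 30 fragments were not close enough to whole numbers (7.29% at most within 0.02) for a count test. The fit was tested on simulated data. Genes named outside the 10 were the targeted gene, Axin2 and, per list, the 4 with the smallest p; others named are members of the lists chosen after their values were seen. The values of 1 gene that this rule names are not reported here. The 10 genes and the lists were chosen with earlier results of these data known. Alternatives comprised pseudocount, filter, scaling, weights, trend, transcript model, replicate block and leaving out each library. Positions are the files' (mm10); strand and exons are GENCODE M21, promoters RefSeq GRCm38.p6.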

Additional observations from a re-analysis of the deposited data

How the results depend on the processing

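Over the 10 genes, 141 of 159 alternative values kept direction and side of the threshold, 7 lost a call, 5 gained one and 6 changed sign. The sign changes were in genes that were not called: Dusp6 had 0.018 with median-ratio scaling, Spry4 0.033 with that scaling and 0.056 with quantile normalization, Spry1 -0.0021 without S37A replicate 2 and -0.048 without vector replicate 2, and Spred1 -0.0026 without S37A replicate 3 (up to 0.033 without S37A replicate 1). Fgfr1 had 0.13 when the most abundant transcript model was used. The number of the 10 genes that rose, 2 as reported, was 3 with median-ratio scaling and with array weights, 1 with no filter and 1 with the most abundant transcript model, and 1 to 2 when single libraries were left out; the number that fell, 1 as reported, was 3 with array weights and 1 to 2 without single libraries. The losses were all of Dusp5: adjusted p was 0.0587 with no filter, 0.0534 with the most abundant model, 0.0941 and 0.115 without S37A replicates 2 and 3, and 0.0591, 0.0676 and 0.0508 without vector replicates 1, 2 and 3. The cause was not tested.

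Over all genes, the number that rose (729) was 1335 with median-ratio scaling, 1094 with quantile normalization, 1238 with array weights, 442 with the replicate block and 276 to 744 without single libraries. The number that fell (2393) was 890, 957, 3655 and 1193 in the same settings, 1500 without the 100 most abundant genes, 1491 with the most abundant model and 547 to 2406 without single libraries. Deviations of libraries with the same number had correlations of -0.12, 0.0207 and 0.104 over 12022 genes, and those with different numbers -0.126 to 0.0974. With 3 libraries a group, such correlations cannot show whether the numbers pair the libraries. With the replicate block in limma, Dusp1, Dusp5 and Spry2 had adjusted p of 0.025, 0.036 and 0.03. Depth was inferred, not given, and 3 libraries a group limit every exact test to p = 0.1.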
